A study of Mus musculus with 12 samples.

Results

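The 10 genes of the NRF2 antioxidant and glutathione programme described here were measured in RNA-seq of mouse adult fibroblasts (MAFs): the regulators Nfe2l2 and Keap1, the glutathione genes Slc7a11, Gclc and Gclm, the thioredoxin genes Txnrd1 and Srxn1, and the detoxification genes Hmox1, Nqo1 and Gsta4. They were chosen by name as the 10 rows carrying these symbols among the 49315 genes of the raw count tables, and all 10 passed the filter on low counts that left 17416 genes for testing. The cells were primary MAFs from the ears of adult wild-type C57BL6/J mice (WT) and of Bmal1−/− mice (KO), labelled as deleted for the circadian clock factor BMAL1. They were grown at 3% oxygen and received 20 Gy of X-rays (senescent) or a sham treatment (control). By the study's methods, irradiated cells were then cultured for weeks, so the senescent libraries do not show the first hours after irradiation. All groups were treated with 100 nM dexamethasone for 2 h, which synchronizes clocks, and collected 12 h later. Each of the 4 groups formed by genotype and treatment held 3 libraries.

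NRF2, the product of Nfe2l2, is a transcription factor that is held down by KEAP1, an adaptor that passes it to a ubiquitin ligase for destruction. Oxidants and electrophiles modify cysteines of KEAP1, NRF2 then builds up without any need for more mRNA, pairs with small MAF proteins at antioxidant response elements (AREs) and raises the transcription of genes for glutathione synthesis, thioredoxin reduction, heme breakdown and quinone detoxification. Most of these genes also answer to other factors, among them BACH1 at Hmox1, ATF4 at Slc7a11 and AP-1, whose site resembles the ARE.

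The libraries held 23923030 to 31736083 counts, so that 3 counts, used as the floor of detection, equalled 0.101 to 0.135 counts per 1e6 counts of the library (CPM), and the 10 genes held 40 to 11006 counts per library. All CPM values are scaled with trimmed mean of M-values (TMM) factors. Arntl, which encodes BMAL1, was counted in all KO libraries, at 11.8 to 15.2 CPM in control and 25.3 to 27.5 CPM in senescent cells, below the 29.8 to 33.2 CPM of WT control and the 35.2 to 37.4 CPM of WT senescent libraries. The study itself reported that KO cells had lost the Bmal1 transcript. The counts used here cover all exons of the gene, so they cannot tell whether an intact transcript was made. The KO less WT difference of Arntl was −1.26 in control (adjusted p 2e-09, SE 0.09) and −0.44 in senescent cells (adjusted p 0.000329, SE 0.08), with an interaction of 0.82 (adjusted p 7.58e-05, SE 0.12). The 10 fibroblast markers were all above 1 CPM in each group, and their summed level was 21559 to 28493 CPM in control and 10530 to 13160 CPM in senescent libraries. However, 6 of 7 chondrocyte markers were above 1 CPM too, and their summed level moved with both factors: it was 6999 to 8660 CPM in WT control, 4575 to 6252 in KO control, 1871 to 2167 in WT senescent and 594 to 688 in KO senescent libraries, with Matn1 at or near 0 (group means of 0 to 0.3 CPM). Col2a1, the collagen that defines cartilage, alone held 417 to 5563 CPM. Their part in the results below was not tested, and in bulk RNA fewer cells of a type and less RNA per cell cannot be told apart. Markers of keratinocytes, macrophages, endothelium, melanocytes and adipocytes summed to at most 33.6 CPM in any library, and those of skeletal muscle to 13.8 to 58.9 CPM, mostly from Acta1. The study's methods describe female mice, whereas the Y-linked gene Ddx3y was counted at 114 to 139.8 CPM and Xist at 2.62 to 22.1 CPM over the 12 libraries of all 4 groups. Nothing in the descriptions says that the 3 libraries of a group came from separate animals or cultures, so p-values measure the spread between these libraries, which may be technical. Because each genotype was deposited as its own table, handling of the tables and genotype cannot be told apart where KO is compared with WT, while a shift common to a table cancels in the interaction.

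Most of the 10 genes passed the test of senescence in each genotype. Nfe2l2, Hmox1, Gclc and Slc7a11 rose in WT and in KO cells, Txnrd1 fell in WT and rose in KO cells, Gclm and Srxn1 passed the test in KO cells, and Nqo1 and Gsta4 passed it in WT cells. The test was edgeR's quasi-likelihood (QL) F-test with an adjusted p under 0.05 over all genes tested, and a called gene also exceeded 1 on the log2 scale. In WT cells 8 of 10 genes passed, 5 higher and 3 lower, where 56.2% of all genes passed, 29.2% higher and 27% lower. In KO cells 8 of 10 passed, 7 higher and 1 lower, where 57.1% of all genes passed, 28.5% higher and 28.6% lower. Most of the table moved with senescence, so these counts say little about the 10 genes alone. The median log2 fold change of the 10 genes was 0.11 in WT cells and 0.37 in KO cells, beside 0.02 and −0.003 over all genes. Called genes were 1 in WT cells (17.4% of all genes) and 2 in KO cells (18.8%). The senescent and control libraries did not overlap for 9 genes in WT cells (63.2% of all genes) and for 9 in KO cells (61.6%).

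The difference between the genotypes was tested as an interaction, which is the log2 fold change with senescence in KO cells minus that in WT cells. It passed for 5 of 10 genes, Hmox1, Txnrd1, Slc7a11, Srxn1 and Gclm, and was above 0 in all 5, where 20.9% of all genes passed in either direction and 9.24% above 0. The median interaction was 0.26 for the 10 genes and −0.03 for all genes. Slc7a11 was the 1 called gene, where 3.66% of all genes were called.

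**Figure D1:**
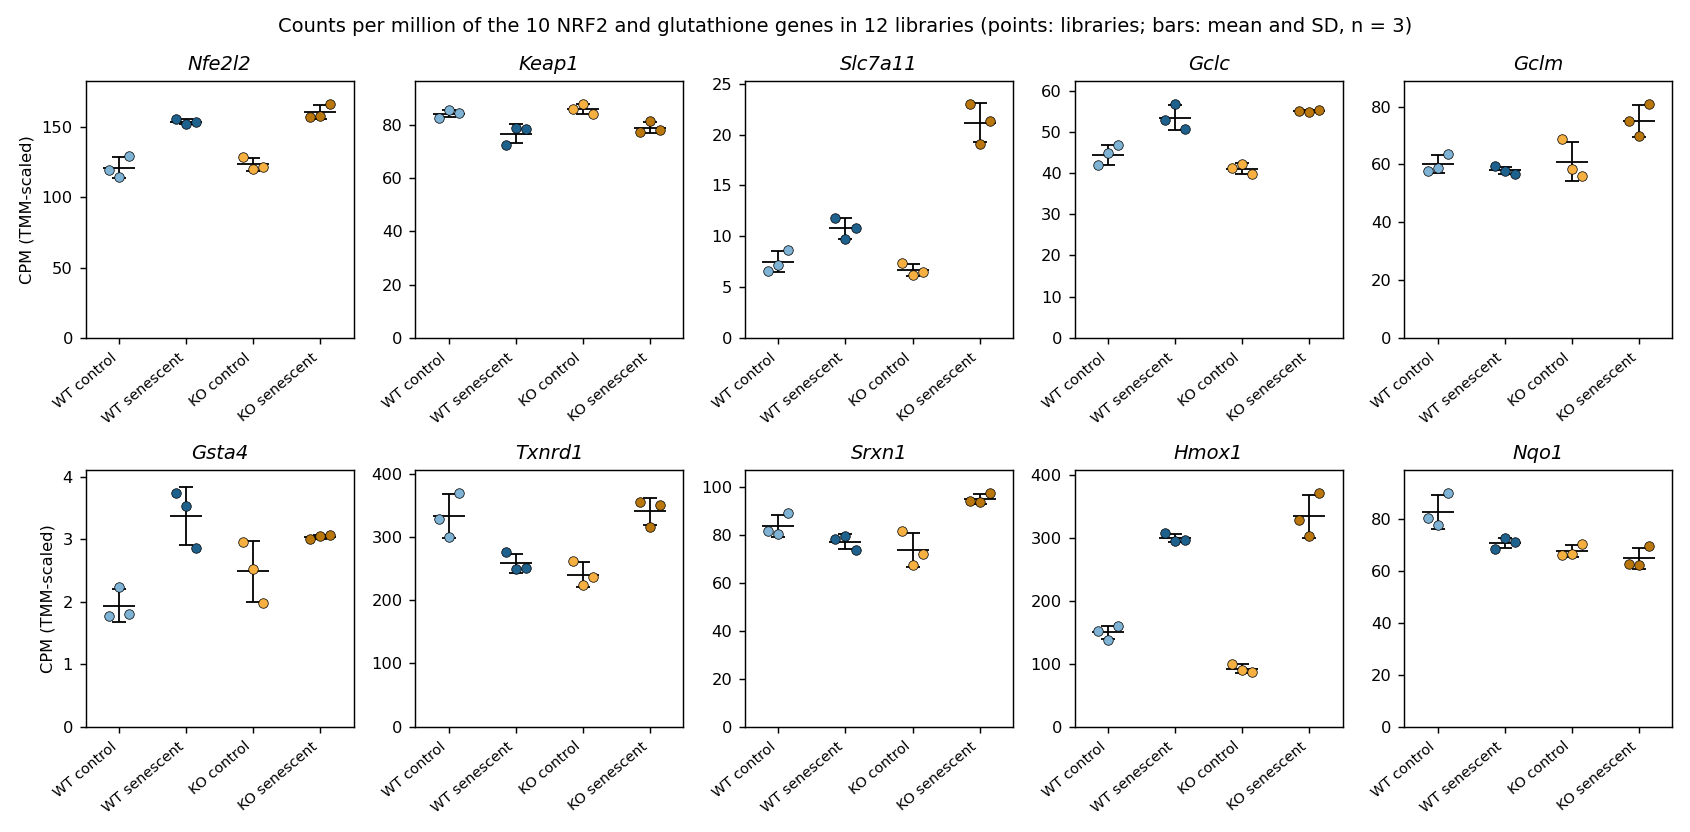
CPM (TMM-scaled) of the 10 genes by group, with 1 point per library and bars for the mean and SD of 3 libraries, each axis starting at 0. KO senescent libraries stand above all others for Slc7a11, Gclm and Srxn1, and KO control libraries lie below all others for Hmox1.

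**Figure D2:**
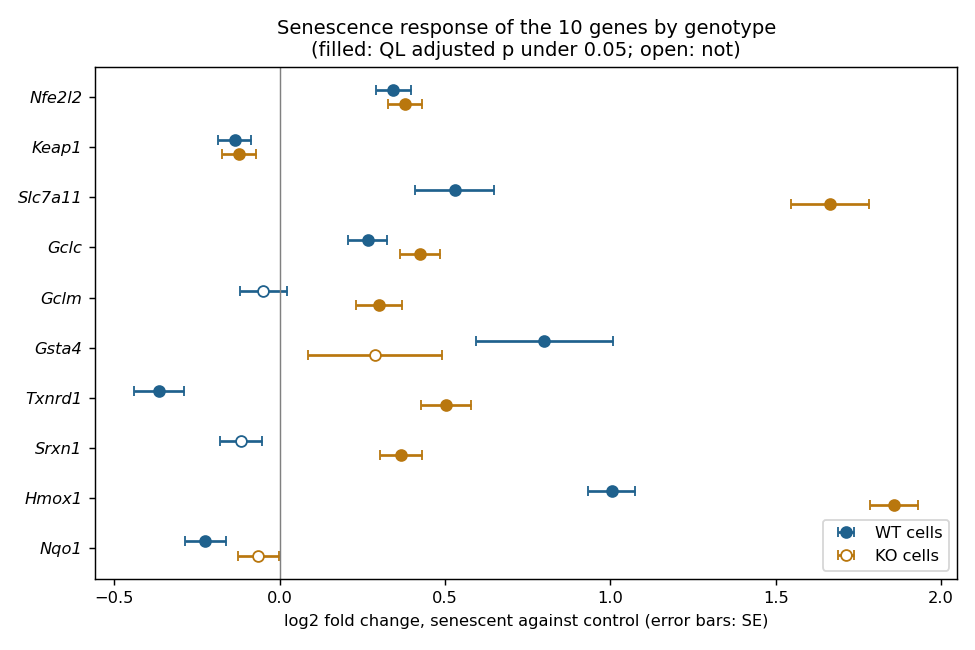
Log2 fold change of senescent against control cells in WT and KO cells for each gene, with bars for the SE and filled points where the adjusted p was under 0.05. Txnrd1 lies at −0.36 in WT and 0.50 in KO cells, while Nfe2l2 lies at 0.34 and 0.38.

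Nfe2l2 (ENSMUSG00000015839, GRCm38 chromosome 2, 75675513 to 75704641, minus strand), the gene of NRF2 itself, is shown with 220 bases of its promoter, from 250 to 31 bases before the RefSeq start site, because the gene holds a match to the ARE that its own product binds. The stretch spans chr2:75704694-75704913 on the minus strand of GRCm38.p6, and capitals mark the ARE core TGACNNNGC, at positions −240 to −232 from the start site.
Nfe2l2: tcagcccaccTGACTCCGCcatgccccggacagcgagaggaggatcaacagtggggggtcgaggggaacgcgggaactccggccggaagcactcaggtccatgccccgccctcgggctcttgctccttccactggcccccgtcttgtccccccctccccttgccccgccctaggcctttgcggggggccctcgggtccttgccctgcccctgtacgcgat
Such a core, on either strand, was present in 12.4% of the 32851 RefSeq windows of 300 bases.

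Nfe2l2 was measured at 119.6, 114.6 and 129.4 CPM in WT control and at 155.4, 152.2 and 153.8 CPM in WT senescent libraries. In KO cells it was measured at 128.7, 120.3 and 121.5 CPM in control and at 157.4, 158.2 and 166.2 CPM in senescent libraries. Senescent libraries of both genotypes lay above all control libraries. The log2 fold change was 0.34 in WT cells (adjusted p 9.86e-06, SE 0.05) and 0.38 in KO cells (adjusted p 2.74e-06, SE 0.05). These changes did not differ detectably, with an interaction of 0.03 (95% interval −0.11 to 0.18, adjusted p 0.792). Control cells of the genotypes overlapped, with a KO less WT difference of 0.03 (95% interval −0.08 to 0.13).

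Keap1 (ENSMUSG00000003308, chromosome 9, 21229730 to 21239361, minus strand), which encodes the inhibitor of NRF2, moved the other way and by less. It was measured at 82.8, 85.5 and 84.6 CPM in WT control and at 72.7, 79.0 and 78.5 CPM in WT senescent libraries. KO control libraries held 86.2, 87.8 and 84.2 CPM and KO senescent libraries 77.5, 81.4 and 78.2 CPM. Each senescent group lay below its control group. The log2 fold change was −0.14 in WT cells (adjusted p 0.0275, SE 0.05) and −0.12 in KO cells (adjusted p 0.0428, SE 0.05). Scaling by library totals without TMM turned both to 0.03 and ended both calls. The WT call was also lost without the filter on low counts, WT control replicate 2 or WT senescent replicate 1 (adjusted p 0.0663 to 0.160). The KO call was lost by DESeq2 (adjusted p 0.104), with RLE factors (0.0818) and without the filter (0.0785). It was also lost with only the groups compared (0.0991) and with a replicate block within genotype (0.0645). Leaving out replicate 1 or 2 of KO control, 1 or 3 of KO senescent or 3 of WT senescent cells ended it too (adjusted p 0.0507 to 0.144). Its exons share 510 bases with the antisense gene Gm16754, whose reads cannot be separated if strand was not used in counting. No motif searched was found in the RefSeq window of Keap1, and sequence outside this window of 300 bases was not searched.

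Within a library the ratio of Nfe2l2 to Keap1, each per kb of exon, does not depend on the scaling. It was 1.79, 1.66 and 1.89 in WT control, 2.64, 2.38 and 2.42 in WT senescent, 1.85, 1.69 and 1.78 in KO control and 2.51, 2.40 and 2.63 in KO senescent libraries. The ratio was higher in every senescent than in every control library of either genotype. The log2 change of the ratio was 0.48 in WT and 0.50 in KO cells, each with an exact two-sided permutation p of 0.1, the smallest that 3 against 3 libraries allow.

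For glutathione synthesis, the cell needs cystine, which SLC7A11 imports in exchange for glutamate, and glutamate-cysteine ligase, whose catalytic subunit is GCLC and whose modifier subunit is GCLM. All 3 genes rose with senescence in KO cells, and Slc7a11 showed the greatest interaction of the 10 genes. The promoters of Slc7a11 and Gclm are shown because these genes differed between genotypes in senescent cells. Slc7a11 (ENSMUSG00000027737, chromosome 3, 49892526 to 50443614, minus strand) is given over chr3:50443644-50443863 on the minus strand and Gclm (ENSMUSG00000028124, chromosome 3, 122245557 to 122270732, plus strand) over chr3:122245307-122245526 on the plus strand, both in GRCm38.p6 and both from 250 to 31 bases before the start site.
Slc7a11: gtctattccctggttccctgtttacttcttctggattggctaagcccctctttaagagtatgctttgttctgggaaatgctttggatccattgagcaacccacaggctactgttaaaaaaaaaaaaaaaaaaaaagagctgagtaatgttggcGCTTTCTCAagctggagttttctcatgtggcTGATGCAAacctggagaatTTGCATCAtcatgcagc
Gclm: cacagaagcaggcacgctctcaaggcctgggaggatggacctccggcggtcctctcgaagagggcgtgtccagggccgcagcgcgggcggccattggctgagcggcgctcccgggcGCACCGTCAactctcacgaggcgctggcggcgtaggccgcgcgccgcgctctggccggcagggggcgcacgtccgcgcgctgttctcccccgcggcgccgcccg
In Slc7a11 the capitals mark, from left to right, a match to TGAGNNNGC, a looser form of the ARE read on the opposite strand (−97 to −89), and the amino acid response element TGATGCAA on the given strand (−66 to −59) and on the opposite strand (−47 to −40). In Gclm they mark the ARE core TGACNNNGC on the opposite strand (−134 to −126). The looser form was present in 17.6% and TGATGCAA in 0.895% of all windows, and both were added to the search after these windows had been read.

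Slc7a11 was measured at 6.60, 7.21 and 8.62 CPM in WT control and at 11.8, 9.76 and 10.8 CPM in WT senescent libraries. It was measured at 7.32, 6.20 and 6.53 CPM in KO control and at 23.0, 19.1 and 21.4 CPM in KO senescent libraries. The control groups overlapped, WT senescent libraries lay above them, and every KO senescent library lay above every WT senescent library. The log2 fold change with senescence was 0.53 in WT cells (adjusted p 0.000806, SE 0.12) and 1.66 in KO cells (adjusted p 1.15e-10, SE 0.12), a 3.17-fold rise. The interaction was 1.13 (adjusted p 0.000107, SE 0.17) and stayed between 1.02 and 1.22 under all alternatives. Between the genotypes, senescent cells differed by 0.97 (adjusted p 2.26e-06, SE 0.11) and control cells by −0.16 (adjusted p 0.459, SE 0.13), KO less WT.

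Gclc (ENSMUSG00000032350, chromosome 9, 77754535 to 77794485, plus strand) rose in both genotypes. Its values were 41.9, 44.7 and 46.7 CPM in WT control, 52.9, 56.6 and 50.7 in WT senescent, 41.3, 42.2 and 39.6 in KO control and 55.0, 54.9 and 55.4 in KO senescent libraries. Each senescent group lay above both control groups, and groups of the same treatment overlapped. The rise was 0.27 in WT cells (adjusted p 0.000754, SE 0.06) and 0.42 in KO cells (adjusted p 3.77e-06, SE 0.06), and the interaction of 0.16 did not pass (95% interval −0.009 to 0.32, adjusted p 0.209).

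Gclm was measured at 57.7, 58.8 and 63.5 CPM in WT control and at 59.3, 57.9 and 56.7 CPM in WT senescent libraries, which overlapped. KO control libraries held 68.6, 58.4 and 55.9 CPM, with replicate 1 above all WT libraries, and KO senescent libraries held 74.8, 69.8 and 80.7 CPM, the highest of the 4 groups. Gclm changed by −0.05 on the log2 scale in WT cells (adjusted p 0.586, SE 0.07) and 0.30 in KO cells (adjusted p 0.00102, SE 0.07). The interaction of 0.35 (adjusted p 0.0166, SE 0.10) was lost without KO control replicate 2 (0.32, adjusted p 0.0550) or replicate 3 (0.29, adjusted p 0.0647). KO senescent cells exceeded WT senescent cells by 0.37 (adjusted p 0.000492, SE 0.07). Exons of Gclm share 296 bases with Gm17494 on the opposite strand and 244 bases with Gm6061 on the same strand.

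The proportion of the ligase subunits was compared within libraries. The ratio of Gclc to Gclm per kb was 1.21, 1.27 and 1.23 in WT control and 1.49, 1.63 and 1.49 in WT senescent libraries, without overlap. In KO cells it was 1.00, 1.21 and 1.18 in control and 1.23, 1.31 and 1.15 in senescent libraries, which overlapped. The log2 change of the ratio was 0.31 in WT cells (exact two-sided permutation p 0.1, the smallest possible) and 0.12 in KO cells (exact p 0.4).

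TXNRD1, the cytosolic thioredoxin reductase, keeps thioredoxin reduced at the expense of NADPH, and SRXN1, sulfiredoxin, restores overoxidized peroxiredoxins. Txnrd1 fell with senescence in WT cells, and both genes rose in KO cells. The promoter of Srxn1 (ENSMUSG00000032802, chromosome 2, 152105516 to 152111376, plus strand) is shown over chr2:152105274-152105493, plus strand, because it carries the AP-1 site and the ARE form side by side, and that of Txnrd1 (ENSMUSG00000020250, chromosome 10, 82833951 to 82897712, plus strand) over chr10:82858956-82859175, plus strand, the 1 of its 3 RefSeq windows with a match.
Srxn1: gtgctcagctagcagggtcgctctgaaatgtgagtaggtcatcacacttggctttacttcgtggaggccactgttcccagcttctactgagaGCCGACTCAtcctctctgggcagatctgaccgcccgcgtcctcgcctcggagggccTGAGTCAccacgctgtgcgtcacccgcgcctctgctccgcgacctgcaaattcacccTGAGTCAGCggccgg
Txnrd1: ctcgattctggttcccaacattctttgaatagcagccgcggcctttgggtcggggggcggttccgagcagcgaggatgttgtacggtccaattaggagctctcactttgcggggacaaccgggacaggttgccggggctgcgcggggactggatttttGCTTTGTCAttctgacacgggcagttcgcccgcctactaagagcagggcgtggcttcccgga
In Srxn1 the capitals mark, from left to right, TGAGNNNGC read on the opposite strand (−158 to −150), the AP-1 site TGAGTCA (−102 to −96), and a second TGAGTCA (−45 to −39) that overlaps TGAGNNNGC on the given strand (−45 to −37). A further match of Srxn1 to the ARE core lies 29 to 37 bases after the start site and is not printed. In Txnrd1 they mark the ARE core on the opposite strand (−92 to −84). The AP-1 site, TGACTCA or its reverse complement TGAGTCA, was present in 5.2% of all windows. The E-box CACGTG, the site bound by the BMAL1 and CLOCK pair, was found in none of the 9 windows of the 7 genes with an entry and in 7.15% of all windows. Sequence outside these windows of 300 bases was not searched.

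Txnrd1 was measured at 328.5, 300.7 and 369.4 CPM in WT control and at 275.9, 248.8 and 250.8 CPM in WT senescent libraries. KO cells showed the opposite order, with 261.3, 223.5 and 236.3 CPM in control and 355.7, 315.8 and 350.6 CPM in senescent libraries. Within each genotype the groups did not overlap. Txnrd1 changed by −0.36 on the log2 scale in WT cells (adjusted p 0.000418, SE 0.07) and 0.50 in KO cells (adjusted p 1.42e-05, SE 0.07), and the interaction was 0.87 (adjusted p 3.3e-05, SE 0.11). The KO less WT difference was −0.47 in control cells (adjusted p 0.000306, SE 0.07) and 0.40 in senescent cells (adjusted p 0.000703, SE 0.07). The interaction ranged from 0.78 to 0.93 under all alternatives.

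Srxn1 was measured at 81.8, 80.4 and 89.1 CPM in WT control and at 78.2, 79.6 and 73.7 CPM in WT senescent libraries. It held 81.7, 67.6 and 72.0 CPM in KO control and 94.0, 93.5 and 97.4 CPM in KO senescent libraries. KO senescent libraries lay above the other 9. Replicate 1 of KO control lay within the range of WT control, and replicates 2 and 3 lay below all WT libraries. The KO less WT difference in control cells was −0.18 and did not pass (adjusted p 0.0626, SE 0.06). It passed without TMM (−0.20, adjusted p 0.0325) and without KO control replicate 1 (−0.26, adjusted p 0.00479). The log2 fold change was −0.12 in WT cells (adjusted p 0.123, SE 0.06) and 0.37 in KO cells (adjusted p 4.34e-05, SE 0.06). The interaction was 0.48 (adjusted p 0.000729, SE 0.09), and KO exceeded WT senescent cells by 0.30 (adjusted p 0.00134, SE 0.06). The WT value was −0.15 (adjusted p 0.0128) when only the WT libraries entered the fit, and 0.05 without TMM.

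The pair was also compared within libraries. The ratio of Srxn1 to Txnrd1 per kb was 0.626, 0.672 and 0.606 in WT control and 0.712, 0.804 and 0.739 in WT senescent libraries. In KO libraries it was 0.785, 0.760 and 0.765 in control and 0.664, 0.744 and 0.698 in senescent cells. The ratio was higher in every WT senescent than WT control library and lower in every KO senescent than KO control library (exact two-sided permutation p 0.1 for each, the smallest possible).

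**Figure D3:**
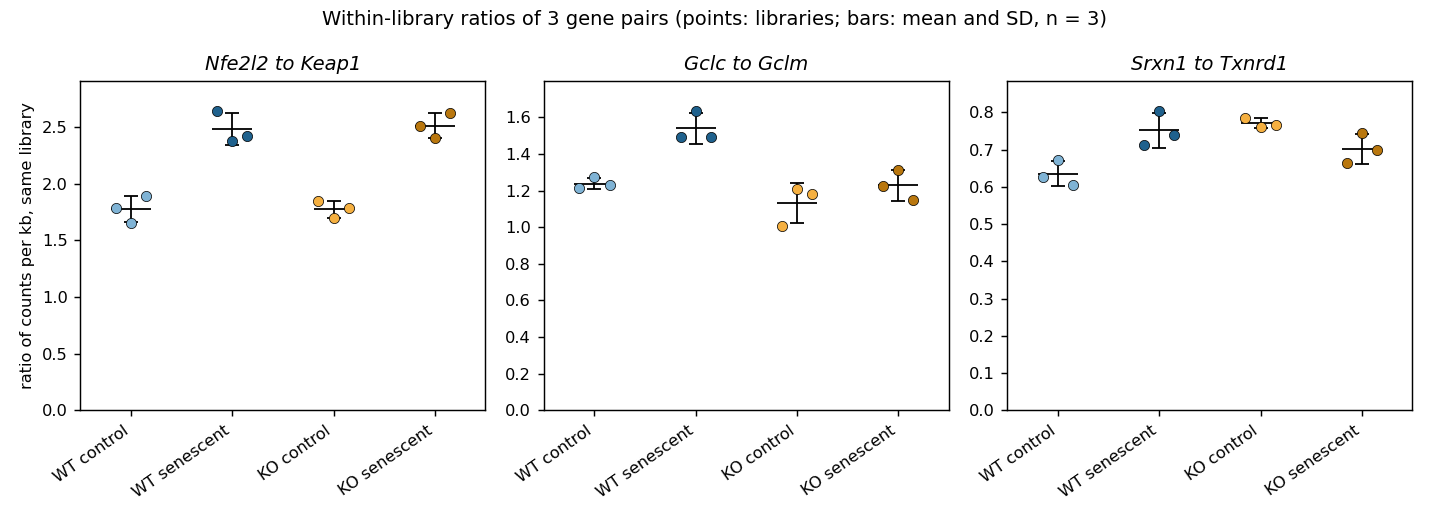
Ratios of counts per kb of exon within the same library for Nfe2l2 to Keap1, Gclc to Gclm and Srxn1 to Txnrd1, with 1 point per library and bars for the mean and SD of 3 libraries. The Nfe2l2 to Keap1 ratio rises from means of 1.78 and 1.77 in WT and KO control to 2.48 and 2.51 in senescent libraries.

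Among the detoxification genes, Hmox1 (ENSMUSG00000005413, chromosome 8, 75093621 to 75100589, plus strand) encodes heme oxygenase 1, which breaks heme into biliverdin, carbon monoxide and iron. It was measured at 151.9, 138.0 and 159.6 CPM in WT control and at 308.0, 296.0 and 297.3 CPM in WT senescent libraries. It was measured at 100.1, 89.8 and 87.2 CPM in KO control and at 329.1, 303.7 and 371.7 CPM in KO senescent libraries. The genotypes stood apart in control cells, with KO the lower, and overlapped in senescent cells. Hmox1 rose by 1.00 on the log2 scale in WT cells (adjusted p 3.38e-10, SE 0.07) and by 1.86 in KO cells (adjusted p 4.06e-14, SE 0.07), which are 2.01-fold and 3.62-fold rises. The interaction was 0.85 (adjusted p 1.68e-05, SE 0.10) and ranged from 0.77 to 0.92 under all alternatives. The KO less WT difference was −0.70 in control cells (adjusted p 1.33e-06, SE 0.07), while that of 0.16 in senescent cells did not pass (95% interval 0.02 to 0.29 before adjustment, adjusted p 0.116). The difference in senescent cells passed without KO senescent replicate 2 (0.22, adjusted p 0.0294). The WT change sat on the threshold of 1 for a called gene, falling to between 0.94 and 0.996 in 6 of 19 alternatives, among them those without WT control replicate 2 (0.94) and without WT senescent replicate 1 (0.99).

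Nqo1 (ENSMUSG00000003849, chromosome 8, 107388225 to 107403206, minus strand), whose product reduces quinones and is a common marker of NRF2 activity, did not follow Hmox1. Its values were 80.4, 77.6 and 90.0 CPM in WT control, 68.5, 72.6 and 71.1 in WT senescent, 66.3, 66.6 and 70.5 in KO control and 62.6, 62.3 and 69.6 in KO senescent libraries. WT control libraries lay above the other 9, which overlapped. Nqo1 changed by −0.22 on the log2 scale in WT cells (adjusted p 0.0039, SE 0.06) and −0.06 in KO cells (adjusted p 0.400, SE 0.06), with an interaction of 0.16 that did not pass (95% interval −0.01 to 0.33, adjusted p 0.213). The KO less WT difference in control cells was −0.29 (adjusted p 0.0034, SE 0.06). Without TMM the WT change was −0.05 and did not pass (adjusted p 0.442). No motif searched was found in the RefSeq window of Nqo1, which begins 250 bases before the start site. Sites farther upstream were not searched.

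Gsta4 (ENSMUSG00000032348, chromosome 9, 78182774 to 78209349, plus strand) encodes a glutathione S-transferase that conjugates the lipid peroxidation product 4-hydroxynonenal. It had the fewest counts of the 10 genes, with 1.77, 2.24 and 1.81 CPM in WT control and values of 3.74, 3.54 and 2.86 CPM in WT senescent libraries. KO libraries held 2.96, 2.53 and 1.97 CPM in control and 3.01, 3.05 and 3.07 CPM in senescent cells. Senescent libraries lay above control libraries in both genotypes, narrowly so in KO cells. Gsta4 changed by 0.80 on the log2 scale in WT cells (adjusted p 0.00251, SE 0.21) and 0.29 in KO cells (adjusted p 0.236, SE 0.20), and the interaction of −0.51 did not pass (95% interval −1.08 to 0.06, adjusted p 0.234). Gsta4 lies 388.3 kb from Gclc, with both on the plus strand of chromosome 9.

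The genotypes were also set side by side within each treatment. In control cells 3 of 10 genes passed, Hmox1, Txnrd1 and Nqo1, and all 3 were lower in KO cells, where 13% of all genes passed and 4.96% did so with lower values in KO cells. In senescent cells 4 of 10 genes passed, Slc7a11, Txnrd1, Gclm and Srxn1, and all 4 were higher in KO cells, where 23.7% of all genes passed and 11.9% did so with higher values in KO cells. At an unadjusted p under 0.05 or by DESeq2, none was higher in KO control cells or lower in KO senescent cells. However, Nqo1 was lower in KO senescent cells by library totals without TMM (−0.16, adjusted p 0.0493). Its value in the main fit was −0.13 (adjusted p 0.156, SE 0.06). None of the 10 genes was called in either comparison, where 2.54% and 3.48% of all genes were called. Slc7a11 in senescent cells (0.97) came nearest and exceeded 1 by DESeq2 (1.00), without WT senescent replicate 1 (1.04) and without KO senescent replicate 2 (1.04). The libraries of the genotypes did not overlap for 3 genes in control cells (25.9% of all genes) and for 5 genes in senescent cells (42% of all genes), the fifth being Nfe2l2, whose difference of 0.06 did not pass (adjusted p 0.428). These comparisons share their libraries with the senescence comparisons and are not independent of them.

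Levels between genes were compared per kb of exon over the 12 libraries. Hmox1 had the highest mean level, 125 CPM per kb, with libraries from 49.8 to 212, and was the gene with the widest spread in CPM per kb. Nqo1 (46.0), Txnrd1 (41.4) and Nfe2l2 (36.8) followed with overlapping ranges, then Srxn1 (29.2), Keap1 (17.4), Gclc (12.9) and Gclm (10.1). Gsta4 (2.14 CPM per kb) and Slc7a11 (0.827 CPM per kb) were the lowest, the latter with the longest annotated exon length, 13922 bases.

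The genes nearest to Nfe2l2 were found by root mean square distance among 10945 genes of at least 5 CPM. The distance was taken over the 12 libraries on log2 CPM, centred per gene but not scaled. It therefore counts the size of a change as well as its direction. The nearest were Ubap1 (distance 0.0365), Pcnp (0.0441), 2610001J05Rik (0.0451), Tmem63b (0.0458) and Hsd17b4 (0.0473). Of the other members, Gclc was nearest, at rank 157 (0.0783), followed by Srxn1 at rank 2165 (0.170) and Gclm at rank 2178 (0.170). Hmox1 was the farthest of those ranked, at rank 9496 (0.596), and Slc7a11 stood at rank 8842 (0.499). Both rose with senescence in each genotype, as Nfe2l2 did, by larger amounts. Keap1, which fell, stood nearer than both, at rank 4614 (0.254). Gsta4 was below 5 CPM and was not ranked.

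The wider pathway list held 100 further genes, of which 93 were tested. In WT cells 67 of the 93 passed with senescence, 46 higher and 21 lower, and in KO cells 62 passed, 44 higher and 18 lower, where 56.2% and 57.1% of all genes passed. The median log2 fold changes were 0.26 and 0.16, beside 0.02 and −0.003 over all genes. The interaction passed for 43 of the 93, 22 above 0 and 21 below 0 (20.9% of all genes passed), with a median of −0.02, beside 5 above 0 and none below 0 among the 10 genes (none below 0 at an unadjusted p under 0.05 or by DESeq2). Between the genotypes 18 genes passed in control cells, 13 higher and 5 lower in KO cells, and 46 in senescent cells, 30 higher and 16 lower in KO cells, where 13% and 23.7% of all genes passed. Single libraries moved both counts: the one in control cells was 9 with WT control replicate 1 or KO control replicate 2 left out, and the one in senescent cells was 28 or 30 with replicate 2 or 3 of the WT senescent group left out and 26 with KO senescent replicate 3 left out. With the same libraries left out, the counts over all genes fell too. They went from 2269 to 1408 or 1443 in control cells, and from 4130 to 2941, 2944 or 3035 in senescent cells.

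NRF2 works with small MAF proteins, and 2 of their genes showed the highest interactions among the 12 regulators and partners listed. Maff was measured at 22.3, 24.4 and 26.1 CPM in WT control, 83.1, 78.0 and 80.2 in WT senescent, 27.8, 20.7 and 20.5 in KO control and 131.0, 139.6 and 150.1 in KO senescent libraries. Its control groups overlapped and its senescent groups did not. The rise of Maff was 1.73 in WT cells (adjusted p 1.86e-10, SE 0.10) and 2.61 in KO cells (adjusted p 9e-13, SE 0.10), with an interaction of 0.88 (adjusted p 0.000312, SE 0.13). Mafk had an interaction of 0.71 (adjusted p 2.5e-05, SE 0.09), with means of 43.9 ± 4.25 and 76.5 ± 1.78 CPM in the WT control and senescent groups against 37.1 ± 1.57 and 105.7 ± 4.70 CPM in the KO groups (SD, n = 3). Mafg, the other small MAF gene listed, had an interaction of 0.23 that did not pass (adjusted p 0.0836, SE 0.09). Its change with senescence was 0.03 in WT cells (adjusted p 0.734) and 0.26 in KO cells (adjusted p 0.00188). Of the 12 genes, 8 passed with senescence in WT cells and 9 in KO cells, and 5 passed the interaction, 4 above 0 and 1 below 0, beside 56.2%, 57.1% and 20.9% of all genes.

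In the list of glutathione synthesis and recycling, which includes Slc7a11, Gclc and Gclm, 6 genes rose and 2 fell in WT cells and 7 rose and 2 fell in KO cells, of 12 tested. Of all genes, 29.2% rose and 27% fell in WT cells and 28.5% rose and 28.6% fell in KO cells. The WT count of 8 was 4 with WT control replicate 2 left out and 5 with replicate 1 or 3 of the WT senescent group left out. Gsr, the glutathione reductase that regenerates reduced glutathione, fell in both genotypes. It was measured at 55.1, 51.3 and 58.8 CPM in WT control, 24.5, 23.4 and 26.1 in WT senescent, 44.6, 41.8 and 41.9 in KO control and 22.8, 22.1 and 23.5 in KO senescent libraries. Senescent libraries of both genotypes lay below all control libraries. Gsr fell by 1.16 on the log2 scale in WT cells (adjusted p 5.99e-12, SE 0.07) and by 0.91 in KO cells (adjusted p 3.12e-10, SE 0.07), and the KO less WT difference in control cells was −0.36 (adjusted p 0.000632, SE 0.07). Chac1, which degrades glutathione, was higher in KO than in WT senescent cells by 0.70 (adjusted p 8.8e-05, SE 0.11), and Oplah, the oxoprolinase that returns glutamate to the cycle, was lower, at 15.2 ± 0.366 against 30.5 ± 2.37 CPM (SD, n = 3, adjusted p 8.39e-07).

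Most glutathione S-transferases, the family of Gsta4, rose in WT cells. Of 19 tested, 16 rose and none fell in WT cells, where 29.2% of all genes passed with higher values, and 9 rose and 1 fell in KO cells, where 28.5% of all genes passed with higher values. No member of the family fell in WT cells at an unadjusted QL p under 0.05 or by DESeq2 either (0 in both). The median log2 fold change was 0.57 in WT and 0.29 in KO cells. The interaction passed for 10 of the 19, with 7 below 0 and 3 above 0, where 20.9% of all genes passed, 11.7% below 0 and 9.24% above 0, and its median was −0.33. Over the alternatives 6 to 8 members passed below 0 and 1 to 3 above 0. Those above 0 were Gsto1, Gsto2 and Gstp1, chosen here after their values were seen.

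Mgst2, a microsomal member of the family, showed the lowest interaction among the pathway genes of at least 5 CPM that passed, −1.24 (adjusted p 0.000451, SE 0.22). It was measured at 5.55, 6.84 and 4.88 CPM in WT control and from 9.90 to 11.2 CPM in WT senescent libraries, which did not overlap. In KO cells it was measured at 4.92, 6.16 and 6.44 CPM in control and 4.98, 4.96 and 3.85 CPM in senescent libraries, which did overlap. Gsto2 had an interaction of 0.83 (adjusted p 0.0384, SE 0.28) that was lost without any single library other than replicate 1 of WT control, WT senescent and KO control cells and replicate 2 of KO senescent cells, with an adjusted p of up to 0.113, and that was lost with a replicate block within genotype (0.81, adjusted p 0.0805). Gstm1, a cytosolic member, was higher in KO than in WT control cells by 0.40 (adjusted p 0.00582, SE 0.09), a call lost without KO control replicate 2 (adjusted p 0.0575). The authors counted uniquely mapped reads alone, which leaves out reads shared by near-identical Gst genes, so the values of this family are uncertain.

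Glutathione peroxidases and glutaredoxins passed in both directions, with 4 higher and 2 lower in WT cells and 4 higher and 1 lower in KO cells, of 9 tested, beside 56.2% and 57.1% of all genes. The KO count of 5 became 8 when scaled by library totals. Gpx3, the secreted glutathione peroxidase, was at 394 ± 48.8 CPM in WT control, 690.1 ± 38.1 in WT senescent, 200.1 ± 31.2 in KO control and 189 ± 19.9 in KO senescent libraries (SD, n = 3). KO libraries lay below WT libraries in both treatments, with differences of −0.98 in control cells (adjusted p 0.00046, SE 0.12) and −1.87 in senescent cells (adjusted p 2.79e-06, SE 0.13), and the interaction was −0.89 (adjusted p 0.00514, SE 0.17). Gpx7, a peroxidase of the endoplasmic reticulum, fell by 1.08 in WT cells (adjusted p 2.4e-11, SE 0.07) and by 1.20 in KO cells (adjusted p 4.04e-12, SE 0.07) on the log2 scale.

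In the thioredoxin and peroxiredoxin list, which includes Txnrd1 and Srxn1, 6 genes rose and 6 fell in WT cells and 8 rose and 4 fell in KO cells, of 16 tested, where 56.2% and 57.1% of all genes passed in either direction. Txn1, thioredoxin itself and the substrate of TXNRD1, fell by 0.89 on the log2 scale in WT cells (adjusted p 1.1e-06, SE 0.09). In KO cells the mean of Txn1 went from 189.2 CPM in control to 137.4 CPM in senescent libraries, without overlap. Prdx4, the peroxiredoxin of the endoplasmic reticulum, fell by 0.92 in KO cells (adjusted p 1.18e-09, SE 0.08). In WT cells its mean went from 62.4 CPM in control to 34.2 CPM in senescent libraries, also without overlap. Sesn1, a sestrin, was higher in KO than in WT control cells by 0.36 (adjusted p 0.0429, SE 0.11), a call that ended by library totals (adjusted p 0.0627), in a fit of only the groups compared (0.35, adjusted p 0.0967) and without WT senescent replicate 2 or 3 or KO senescent replicate 1 (adjusted p 0.0504 to 0.0545), without KO control replicate 2 (0.23, adjusted p 0.281), without WT control replicate 1 (adjusted p 0.134) and without WT control replicate 3 (adjusted p 0.142).

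The quinone and carbonyl detoxification list, which includes Nqo1, held 7 genes that rose and 5 that fell in WT cells and 9 that rose and 1 that fell in KO cells, of 15 tested (56.2% and 57.1% of all genes passed). Ephx1, microsomal epoxide hydrolase, was measured at 81.0, 82.4 and 92.3 CPM in WT control, 410.0, 435.2 and 430.5 in WT senescent, 126.8, 132.9 and 125.5 in KO control and 340.0, 403.0 and 355.8 in KO senescent libraries. Its libraries did not overlap between any of the groups. Ephx1 rose by 2.32 in WT cells (adjusted p 1.14e-16, SE 0.07) and by 1.51 in KO cells (adjusted p 2.37e-14, SE 0.06), an interaction of −0.81 (adjusted p 6.54e-06, SE 0.09), and KO control cells exceeded WT control cells by 0.59 (adjusted p 1.37e-06, SE 0.06). Aox1, an aldehyde oxidase, rose by 2.39 in WT cells (adjusted p 8.86e-11, SE 0.17) and by 2.07 in KO cells (adjusted p 2.82e-10, SE 0.16).

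The remaining lists were short. For heme and iron handling, which includes Hmox1, 4 genes rose and 1 fell in WT cells and 4 rose and 3 fell in KO cells, of 8 tested. Of 6 genes that supply NADPH, 1 rose and 3 fell in WT cells and 2 rose and 2 fell in KO cells, and 5 passed the interaction, 3 above 0 and 2 below 0. Of 4 superoxide dismutase and catalase genes, 1 rose and 1 fell in each genotype. These shares stand beside the same 56.2% and 57.1% of all genes for senescence and 20.9% for the interaction.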

How the data were processed

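The authors isolated poly(A) RNA, sequenced paired reads, trimmed them with Trimmomatic 0.36, mapped them with STAR 2.5.2b to GRCm38 and counted unique reads in exons with featureCounts; bcl2fastq 2.17 preceded these steps. The use of strand and the annotation release are not given in the sources used here. The deposited values are raw counts per gene, in 1 table per genotype, and all 12 columns were used. Dropping reads that map to several places lowers the counts of genes with near-identical copies.

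From the deposited counts, 49056 of 49315 identifiers were matched to a symbol and coordinates in GENCODE M21. Genes were kept by filterByExpr (17416) and fitted with edgeR 4.0.16 in R 4.3.3 (TMM, robust QL fit, 1 mean per group, 12 libraries). Benjamini-Hochberg adjustment covered every gene in the fit. The SE is the absolute log2 fold change divided by the square root of F, and the 95% interval is 1.96 SE on either side. Centred log2 CPM used a prior count of 2. Intervals and floors cover counting error and the spread between these libraries only, since the reads carried no molecular identifiers.

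DESeq2 1.42.0, RLE factors, no filter, only the groups compared, a replicate block, called genes only and leaving out each library were alternatives, and library totals without TMM were added after the data were seen. Libraries of the same group differed by more than sampling noise (chi-square per degree of freedom 3.21 to 19.5 over 12 pairs). The members, lists and motifs were chosen with earlier results of these data known. Pathway genes named are, for each comparison and direction, up to 3 that passed, taken by size of change from genes averaging 5 CPM or more, besides the 5 genes nearest to Nfe2l2. Mafg was named in addition, as the other small MAF gene listed. Promoters are the RefSeq windows (GRCm38.p6) of 250 bases before to 50 after a start site, with an entry for 7 of the 10 genes.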

Additional observations from a re-analysis of the deposited data

Results flagged for a closer look

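The 5 members and 6 pathway genes below drew attention because their senescence response differed between genotypes by the interaction test (KO less WT senescence log2 fold change, QL adjusted p over all genes).

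Among the members, the interaction was 0.85 for Hmox1 (adjusted p 1.68e-05, SE 0.10), 0.35 for Gclm (adjusted p 0.0166, SE 0.10), 0.48 for Srxn1 (adjusted p 0.000729, SE 0.09), 0.87 for Txnrd1 (adjusted p 3.3e-05, SE 0.11) and 1.13 for Slc7a11 (adjusted p 0.000107, SE 0.17). For Txnrd1 the changes in WT and KO cells had opposite signs and each passed the test. For Hmox1 the genotypes stood apart in control cells and overlapped in senescent cells, and for Slc7a11, Gclm and Srxn1 it was the reverse.

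Among the pathway genes, the interaction was 0.88 for Maff (adjusted p 0.000312, SE 0.13), 0.71 for Mafk (adjusted p 2.5e-05, SE 0.09) and 0.83 for Gsto2 (adjusted p 0.0384, SE 0.28). It was −1.24 for Mgst2 (adjusted p 0.000451, SE 0.22), −0.89 for Gpx3 (adjusted p 0.00514, SE 0.17) and −0.81 for Ephx1 (adjusted p 6.54e-06, SE 0.09).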

How the results depend on the processing

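Of 920 alternatives to the 50 member results, 885 kept direction and side of the threshold, 16 lost the call, 5 gained it and 14 changed sign. Counting only called genes left 1, 2, 1, 0 and 0 members and 18, 15, 3, 1 and 3 pathway genes in the WT, KO, interaction, control and senescent comparisons. Leaving out 1 library gave 7 to 8, 7 to 8, 4 to 5, 3 to 4 and 4 to 5 members and 59 to 68, 53 to 63, 33 to 50, 9 to 21 and 26 to 49 pathway genes. The pathway count for KO against WT control was 9 without WT control replicate 1 or KO control replicate 2, and that for senescent cells was 28, 30 and 26 without WT senescent replicate 2, WT senescent replicate 3 and KO senescent replicate 3. Over all genes the counts under the same removals were 1408 and 1443 for control cells, beside 2269 in the main fit. For senescent cells they were 2941, 2944 and 3035, beside 4130. For the pathway counts and for the changes of sign by library, the cause was not tested.

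Library totals without TMM shifted the median of all genes by 0.17 in WT and 0.15 in KO cells, and the share of higher genes among those that passed went from 52% to 68.5% in WT cells, from 49.9% to 64.9% in KO cells and from 50.4% to 40.1% between senescent cells. They gave 0.034 in WT and 0.030 in KO cells for Keap1, with an interaction of −0.0031, and 0.090 for Nqo1 in KO cells, 0.12 for Gclm in WT cells and 0.053 for Srxn1 in WT cells, all changes below the shift.

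Signs that changed without 1 library belonged to values near 0. The Nfe2l2 interaction was −0.018 without WT control replicate 3 (range −0.018 to 0.072), and its KO less WT control difference was −0.010 without WT control replicate 2 and −0.0011 without KO control replicate 1 (range −0.010 to 0.080). The Keap1 interaction was −0.028, −0.0056 and −0.012 without WT senescent replicate 1, KO control replicate 3 and KO senescent replicate 2 (range −0.028 to 0.032). The Gclm control difference was −0.0029 and −0.066 without WT or KO control replicate 1 (range −0.066 to 0.085).

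Replicate numbers showed no clear pairing of the libraries (correlations of −0.32 to 0.303, with 5 of 12 pairs over 0.1). Pairs of unlike number ranged from −0.364 to 0.434. With 3 libraries per group these correlations cannot decide whether libraries were paired. A replicate block kept all 50 member results and gave 8, 8, 5, 3 and 4 members, and a block within genotype changed 1 of 30, Keap1 in KO cells (adjusted p 0.0645). DESeq2 kept 49 of 50. At this depth 3 counts equal 0.101 to 0.135 CPM, under every member's level.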
